A study of Homo sapiens with 6 samples.

Results

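Immune checkpoint genes were examined in a cultured melanoma line. The 10 genes were named beforehand and looked up by symbol in the deposited table: the receptors CTLA4 and HAVCR2, and the ligands CD80, CD86, CD274, PDCD1LG2, CD276, PVR, CD47 and LGALS9. All 10 had a row among the 26902 rows of the table. CTLA4 was chosen by its measured TPM in these tumour cells, so its values are given as a description and with no test. The other 9 were named by their role, with earlier results of the series known.

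The libraries came from HMCB, a human melanoma cell line labelled Nras Q61K, an activating change in the NRAS oncogene that both groups carry. The control group received the control siRNA, siNC, in 3 libraries. The siAHCYL1 group, also of 3 libraries, received AHCYL1 siRNA. RNA was collected 3 days later. AHCYL1, also called IRBIT, binds the IP3 receptors that release calcium from the endoplasmic reticulum, and the series asks how it promotes proliferation of NRAS-mutant melanoma cells. Values are TPM, which divides by transcript length, so levels can be compared between genes. The libraries were not strand-specific, so reads from genes that overlap on opposite strands cannot be told apart.

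Immune checkpoints are receptor and ligand pairs that raise or lower the response of T cells, natural killer (NK) cells and macrophages to a target cell. CTLA4 on T cells competes with the activating receptor CD28 for CD80 and CD86, the ligands of antigen-presenting cells. CD274 (PD-L1) and PDCD1LG2 (PD-L2) engage PD-1, PVR engages TIGIT, CD96 and CD226, CD47 engages SIRPA on macrophages, and LGALS9 (galectin-9) is a ligand of HAVCR2 (TIM-3). Melanoma was the tumour in which antibodies to CTLA4 and PD-1 entered the clinic, and melanoma cells can themselves carry checkpoint ligands and, in some lines, receptors.

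A pair of promoter stretches is shown because the most changed member, CTLA4, and the most targeted ligand, CD274, differ in the elements they hold. Both come from the 250 bases before the RefSeq start site, on the plus strand of GRCh38.p14. All 250 are shown for CTLA4 (chr2:203867521-203867770). For CD274 the 200 bases farthest from the start are shown (chr9:5450292-5450491), and the rest, up to position 5450541, is left out. Motif positions are counted back from the start site. Capitals mark every match, on either strand, to GGAAA (the core bound by NFAT), GAAA and GAAA set 2 bases apart (an interferon regulatory factor, or IRF, element), TGANTCA (AP-1), TTCNNNGAA (a STAT element), TCANGTG (MITF) or ACAAAG (SOX factors).
CTLA4: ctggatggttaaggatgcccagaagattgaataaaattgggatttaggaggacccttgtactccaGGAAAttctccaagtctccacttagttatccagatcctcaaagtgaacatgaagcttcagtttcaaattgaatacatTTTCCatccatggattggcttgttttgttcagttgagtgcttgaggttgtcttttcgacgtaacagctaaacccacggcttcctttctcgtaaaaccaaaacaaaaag
CD274: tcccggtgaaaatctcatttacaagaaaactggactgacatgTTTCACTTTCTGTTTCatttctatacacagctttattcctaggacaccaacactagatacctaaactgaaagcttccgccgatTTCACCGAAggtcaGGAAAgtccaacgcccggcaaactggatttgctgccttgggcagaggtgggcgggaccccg

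The CTLA4 stretch held GGAAA at 185 and, on the other strand, at 108 bases before the start, and none of the other 5 motifs. Of 35116 promoters in the table, 55.6% held GGAAA in the same 250 bases, so a match is common. The CD274 stretch held 2 overlapping matches to the IRF element, starting 208 and 202 bases before the start, a motif found in 3.02% of promoters. It also held TTCNNNGAA 125 bases before the start (6.57% of promoters) and GGAAA at 111. TGANTCA was in 6.57% of promoters, TCANGTG in 10.7% and ACAAAG in 13.7%. Base composition also differed among the members. The 250 bases before CTLA4 were 40.4% G and C with 4 CpG dinucleotides, against a median of 58% and 11 over all promoters. Those of PVR (70% and 27), CD47 (79.6% and 39) and CD276 (80.8% and 29, and 77.2% and 23 at a second start) were richer. In all, 8 of the 10 members had a promoter in the table. GGAAA was also found before CD276, PVR, CD86 and LGALS9. Whether any of these elements had a part in the differences between the groups was not tested.

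AHCYL1, the gene targeted, had 150.02, 134.05 and 131.09 TPM in siNC and 13.45, 11.13 and 10.97 TPM in siAHCYL1, with no overlap (log2 fold change -3.44, limma adjusted p = 5.64e-08; exact permutation p = 0.1, the smallest that 3 against 3 allows). Of the 13266 genes tested, 51.6% were called at an adjusted p under 0.05: 30.4% were higher in siAHCYL1 and 21.2% were lower. Higher genes made up 58.9% of the calls, but 50.8% with median-of-ratios scaling and 48.1% after quantile normalization. Genes as a whole had a median log2 fold change of 0.06. On the second principal component both replicates numbered 1 scored high, 15.038 in siNC and 17.57 in siAHCYL1, and the other 4 libraries scored between -14.515 and -1.226. Markers of the melanocyte lineage were uneven. SOX10, a transcription factor of the neural crest lineage, lay between 993 and 1050 TPM and was not called. The adhesion protein MCAM fell from 862 ± 20.9 to 670.3 ± 12.3 TPM (log2 fold change -0.36, adjusted p = 0.00041). Of the pigment genes, TYR was listed at 0, MLANA reached at most 0.79 TPM, PMEL 1.94 and TYRP1 5.02 TPM. PMEL had 1.53, 0.76 and 0.34 TPM in siNC and 1.94, 1.63 and 1.91 TPM in siAHCYL1. TYRP1 rose from 1.587 ± 0.484 to 3.76 ± 1.18 TPM (0.87, adjusted p = 0.00897). DCT, another pigment enzyme, had 10.79, 11.49 and 11.95 TPM in siNC and 0.24, 0.15 and 0.62 TPM in siAHCYL1, 33.9-fold lower in mean TPM.

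Markers of immune cells were at or near 0. Of 12 T cell markers in the table none reached 1 TPM in any library, and the receptor complex genes CD3D, CD3E and CD3G and the adhesion receptor CD2 were listed at 0 in all 6. The T cell list summed to between 1.33 and 1.78 TPM in siNC and between 1.52 and 1.90 TPM in siAHCYL1. Of 12 macrophage and dendritic cell markers, 7 were listed at 0 in all libraries, among them CSF1R, ITGAM and TYROBP. That list summed to between 1.01 and 1.73 TPM and between 0.81 and 1.45 TPM in the same order. Of 6 B cell markers, 4 were listed at 0, with sums of 0.50 to 0.91 and 0.10 to 0.19 TPM. Of 5 NK cell markers, 3 were listed at 0. PRF1, the pore protein perforin, was the one immune marker to reach 1 TPM, with 1.09, 1.39 and 1.82 TPM in siNC and 0.11, 0 and 0 TPM in siAHCYL1. The NK cell list summed to between 1.09 and 1.86 TPM in siNC and at most 0.11 TPM in siAHCYL1. The NK and B cell sums were lower in siAHCYL1, as CTLA4 was, and their part in its difference was not tested. Of 9 melanocytic markers tested, 4 were called higher and 3 lower, against 51.6% of all genes called. PMEL, TYRP1, S100B and S100A1 were higher, and DCT, MCAM and EDNRB were lower. PMEL and DCT among them passed the filter through 1 group. DCT, like CTLA4, was far lower in all siAHCYL1 libraries, and its part in the CTLA4 difference was not tested.

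Only 4 of the 10 checkpoint genes passed the filter of 1 TPM in at least 3 libraries: CD276, PVR, CTLA4 and CD47. The levels of the control cells ran from CD276 at 139.6 ± 7.37 TPM (SD, n = 3) through PVR at 36.47 ± 1.03 to CTLA4 at 14.5 ± 1.81 and CD47 at 13.07 ± 0.187 TPM. CTLA4 and CD47 were not separate, since CTLA4 was above CD47 in replicates 1 and 2 and below it in replicate 3. In siAHCYL1 the order was CD276, PVR and CD47 in every library, and CTLA4 lay at 1.19 TPM or less. CD276 made up between 67.7% and 68.2% of the summed TPM of the 10 genes in siNC and between 77.5% and 79.6% in siAHCYL1. These sums include CTLA4 and PVR, so their lower values raise the CD276 share, as do the higher values of CD276 itself. The other 6 genes stayed at 1.28 TPM or less throughout.

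**Figure D1:**
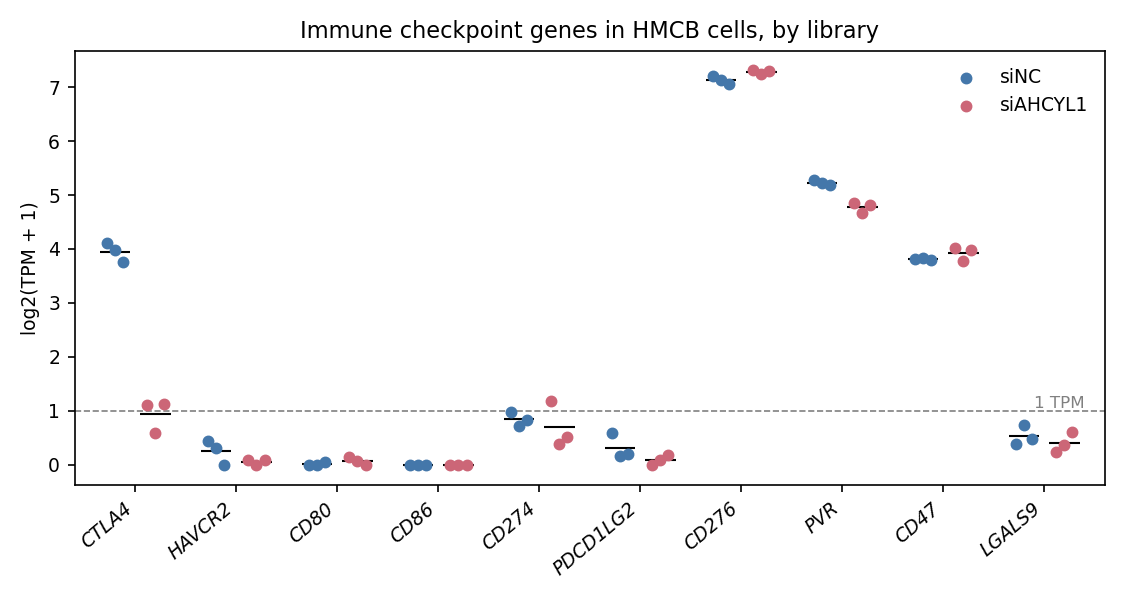
Levels of the 10 checkpoint genes as log2(TPM + 1) in each library (points), with the mean of each group (black line), for siNC (blue) and siAHCYL1 (red). CD276, PVR and CD47 stay above 1 TPM (dashed line) in all 6 libraries, CTLA4 drops from 12.57 or more to 1.19 TPM or less, and the other 6 genes lie near the floor.

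CTLA4, the inhibitory receptor, was the member with the widest gap between the groups. It had 16.17, 14.77 and 12.57 TPM in siNC and 1.16, 0.51 and 1.19 TPM in siAHCYL1. All 3 control libraries were far above all 3 siAHCYL1 libraries. The mean went from 14.5 ± 1.81 to 0.953 ± 0.384 TPM, a 15.2-fold lower level that left 6.57% of the control mean. The log2(TPM + 1) scale compresses low values, and the difference on it was -3.00 (SE 0.178), and with a pseudocount of 0.1 it was -3.86. CTLA4 passed the filter through its control libraries and was chosen for its values, so no test is given. In bulk RNA, fewer cells with the transcript and less transcript per cell cannot be told apart. The table gives 1 value per gene, so membrane and soluble splice forms of CTLA4 were not separated. Of the genes of the T cell receptor complex, CD3D, CD3E and CD3G were listed at 0 in the same libraries. CD247 lay at 0.39 TPM or less, and TRAC, TRBC1 and TRBC2 matched no row. Whether T cells had a part in the CTLA4 values was not tested.

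CTLA4 lies on chromosome 2 between CD28, its activating counterpart, and ICOS, a related costimulatory receptor, and all 3 were detected. CTLA4 spans positions 203867771 to 203873965 (GRCh38, plus strand), CD28 ends 128.9 kb before it and ICOS starts 62.8 kb after it. CD28 had 29.17, 25.41 and 26.33 TPM in siNC and 23.14, 19.84 and 19.84 TPM in siAHCYL1. The groups did not overlap, and CD28 fell (mean 26.97 ± 1.96 in siNC and 20.94 ± 1.91 in siAHCYL1, log2 fold change -0.35, SE 0.0968, adjusted p = 0.0133). Without siAHCYL1 replicate 2 the adjusted p was 0.0547. ICOS had 1.59, 1.22 and 1.64 TPM in siNC and 0.26, 1.02 and 0.37 TPM in siAHCYL1. ICOS passed the filter through its control libraries, as CTLA4 did, but with no filter it was called lower as well (-0.71, adjusted p = 0.0245). That call was lost without siNC replicate 1 (0.0676) or 3 (0.0771), without siAHCYL1 replicate 1 (0.076) or 3 (0.0765), and without replicate 1 of both groups (0.146).

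The 3 receptor genes did not move by the same amount. CTLA4 was at 0.554, 0.581 and 0.477 of the CD28 level in siNC and at 0.0501, 0.0257 and 0.06 of it in siAHCYL1. This ratio was lower in every siAHCYL1 library. It rests on CTLA4 and carries no test. The other 2 genes in the table within 500 kb showed overlapping groups. ABI2, an actin regulator of the WAVE complex, had 44.58, 41.81 and 39.83 against 45.98, 41.69 and 40.1 TPM (log2 fold change 0.02, adjusted p = 0.882). RAPH1, lamellipodin, had 27.15, 25.11 and 24.2 against 28.12, 22.43 and 21.6 TPM (-0.09, adjusted p = 0.533).

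**Figure D2:**
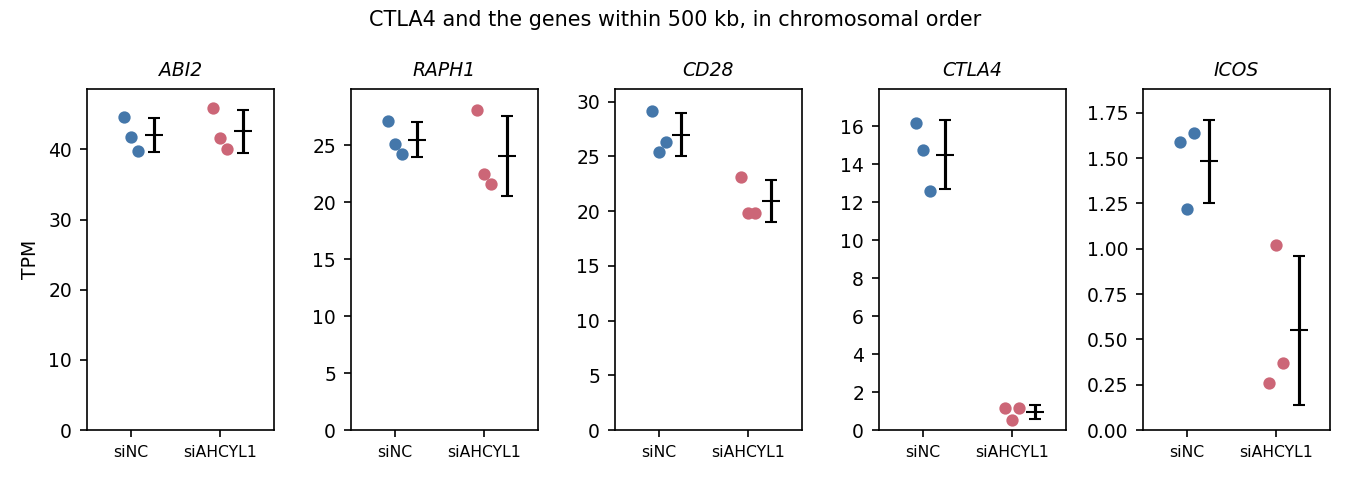
TPM in each library (points) with the group mean and SD (black bars) for the genes within 500 kb of CTLA4, in chromosomal order, each axis starting at 0. CTLA4 drops to 6.57% of its control mean and CD28 to 77.6%, while ABI2 and RAPH1 overlap between the groups.

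The ligands shared by CTLA4 and CD28 were all but missing from these cells. CD80 was listed at 0, 0 and 0.04 TPM in siNC and at 0.1, 0.05 and 0 TPM in siAHCYL1. CD86 was listed at 0 in all 6 libraries. Neither was tested. CD80 shares 798 of its 3201 exon bases with TIMMDC1 on the other strand, so its few hundredths of a TPM are uncertain. ICOSLG, the ligand of ICOS, had 3.56, 2.95 and 1.33 against 1.92, 3.18 and 1.98 TPM, and its groups overlapped (adjusted p = 0.846).

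The wider B7 and CD28 families moved in both directions. Of 17 listed genes 10 were tested, of which 2 rose and 2 fell, 40% called against 51.6% of all genes, with a median log2 fold change of -0.02 against 0.06 over all genes. ICOS, 1 of the 2 that fell, entered through its control libraries. BTN3A2, a butyrophilin close in sequence to BTN3A1 and BTN3A3, rose. It had 21.75, 22.02 and 22.68 TPM in siNC and 50.52, 44.53 and 43.69 TPM in siAHCYL1 (1.03, SE 0.0831, adjusted p = 1.36e-05). The siAHCYL1 libraries were all above the controls, but reads can be split among the 3 butyrophilin copies, so the single value is uncertain. TNFRSF14, the receptor known as HVEM that engages BTLA, rose from 15.86 ± 2.54 to 20.41 ± 1.48 TPM (0.35, adjusted p = 0.0386). Its call was lost under 4 other settings (adjusted p from 0.0514 to 0.142), and without siNC replicate 1 (0.111) or siAHCYL1 replicate 2 (0.124) or 3 (0.077). PDCD1, which encodes PD-1, stayed at 0.29 TPM or less.

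CD274 and PDCD1LG2, the ligands of PD-1, were near the floor in both groups. CD274 (chromosome 9, positions 5450503 to 5470566) had 0.98, 0.64 and 0.77 TPM in siNC and 1.28, 0.31 and 0.43 TPM in siAHCYL1. The groups overlapped, and the highest value of each was in replicate 1. CD274 was just under the filter, with 1 library at 1 TPM or more. PDCD1LG2, its neighbour on chromosome 9, had 0.5, 0.12 and 0.15 TPM in siNC and 0, 0.06 and 0.14 TPM in siAHCYL1, which also overlapped. Neither was tested.

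Genes known to raise or lower PD-L1 were expressed and moved both ways while CD274 stayed at 1.28 TPM or less. Of 22 listed regulators, all were tested, 6 rose and 7 fell, 59.1% called against 51.6% of all genes (median log2 fold change -0.04). Only 4 fell without siNC replicate 2 or siAHCYL1 replicate 3. IRF1, the interferon-induced factor that binds elements like those in capitals in the CD274 promoter, fell from 19.61, 14.56 and 15.98 to 9.13, 9.07 and 7.82 TPM (-0.87, SE 0.128, adjusted p = 0.000455). It shares 1716 of 7799 exon bases with C5orf56 on the other strand. STAT3, a cytokine signalling factor, rose from 65.1 ± 2.93 to 101.9 ± 3.58 TPM (0.64, adjusted p = 5.74e-05). IFNGR2, a chain of the interferon-gamma receptor, rose (81.79 ± 4.4 to 105.6 ± 1.43 TPM, 0.37, adjusted p = 0.00135).

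CMTM6, which keeps PD-L1 on the cell surface, rose from 80.28 ± 9.15 to 120.9 ± 6.47 TPM (0.59, adjusted p = 0.00048). HIF1A, the hypoxia factor, fell (221.1 ± 19.5 to 180.5 ± 24.5 TPM, -0.30, adjusted p = 0.0343). Its groups overlapped, and its call was lost with no filter (0.0685), with no trend and robust moderation (0.0752) and without siNC replicate 1 (0.0985) or 2 (0.0905) or siAHCYL1 replicate 2 (0.122) or 3 (0.101). IFNGR1, the other chain of the interferon-gamma receptor, fell (52.51 ± 0.558 to 42.64 ± 3.16 TPM, -0.30, adjusted p = 0.00962). It lies outside the naming rule and was chosen after its values were seen.

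**Figure D3:**
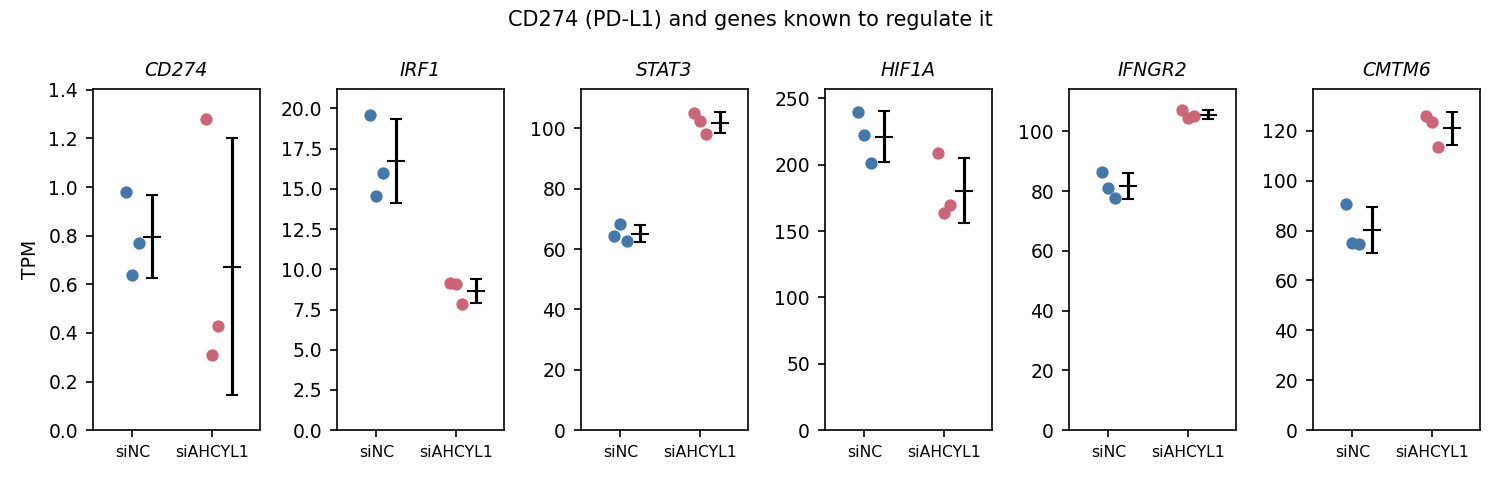
TPM in each library (points) with the group mean and SD (black bars) for CD274 and the 5 named genes known to regulate it, each axis starting at 0. CD274 overlaps between the groups at 1.28 TPM or less, IRF1 is lower in all 3 siAHCYL1 libraries, and STAT3, IFNGR2 and CMTM6 are higher in all 3.

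CD276 (B7-H3), a B7 family ligand whose receptor is debated, was the most abundant member. It had 147.51, 138.4 and 132.93 TPM in siNC and 157.51, 149.76 and 155.47 TPM in siAHCYL1. The groups did not overlap, as in 59.2% of all genes tested, and the means were 139.6 ± 7.37 and 154.2 ± 4.02 TPM. The difference did not pass (log2 fold change 0.14, SE 0.0631, adjusted p = 0.0837). Leaving out siNC replicate 1 brought it past the threshold (0.18, adjusted p = 0.0452). So did leaving out both replicates numbered 1 (0.17, adjusted p = 0.0338). No other fit with a library left out passed (adjusted p from 0.132 to 0.241). The difference shrank to 0.08 with median-of-ratios scaling (adjusted p = 0.263) and to 0.09 with quantile normalization (adjusted p = 0.205). Of the 3 members tested, 1 was called, against 51.6% of all genes, and that was PVR.

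PVR (CD155), the poliovirus receptor and a ligand of TIGIT, CD96 and CD226, fell. It had 37.58, 36.31 and 35.53 TPM in siNC and 27.78, 24.51 and 27.22 TPM in siAHCYL1. Every siAHCYL1 library was below every control. The mean went from 36.47 ± 1.03 to 26.5 ± 1.75 TPM, 72.7% of the control level (log2 fold change -0.45, SE 0.0809, adjusted p = 0.00149). In all 14 other fits it stayed past the threshold, with log2 fold changes from -0.54 to -0.40 and adjusted p from 0.000317 to 0.00924. PVR (chromosome 19, positions 44643798 to 44663583) shares 121 of 3519 exon bases with CEACAM19 on the same strand.

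The relatives and receptors of PVR changed in both directions. Of 10 listed genes 6 were tested, of which 2 rose and 3 fell, 83.3% called against 51.6% of all genes (median log2 fold change -0.24). NECTIN2, another ligand of CD226 and TIGIT, had 104.34, 108.16 and 100.7 TPM in siNC and 139.61, 132.15 and 142.65 TPM in siAHCYL1. It rose (0.40, SE 0.0628, adjusted p = 0.000653), with all siAHCYL1 libraries above the controls. NECTIN2 was at 2.78, 2.98 and 2.83 times the PVR level in siNC and at 5.03, 5.39 and 5.24 times in siAHCYL1. The exact permutation p for this ratio, chosen after the values were seen, was 0.1, the smallest possible. Since NECTIN2 rose and PVR fell, each with no overlap, that outcome was fixed and adds no support.

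CD96, a receptor of T and NK cells that binds PVR, was well above the T cell markers. It had 74.59, 65.28 and 61.75 TPM in siNC and 194.8, 151.05 and 141.39 TPM in siAHCYL1. It rose 2.42-fold in mean TPM (log2 fold change 1.25, SE 0.12, adjusted p = 3.65e-05). CD226, the activating receptor of the same ligands, fell from 5.49, 3.87 and 4.55 to 2.02, 2.78 and 2.11 TPM (-0.77, adjusted p = 0.00388). CADM1, a cell adhesion protein and the ligand of CRTAM, fell from 102.7 ± 1.7 to 65.25 ± 5.84 TPM (-0.65, adjusted p = 0.000115). NECTIN1, an adhesion protein outside the naming rule and chosen after its values were seen, also fell (-0.44, adjusted p = 0.0143). TIGIT stayed at 0.12 TPM or less.

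**Figure D4:**
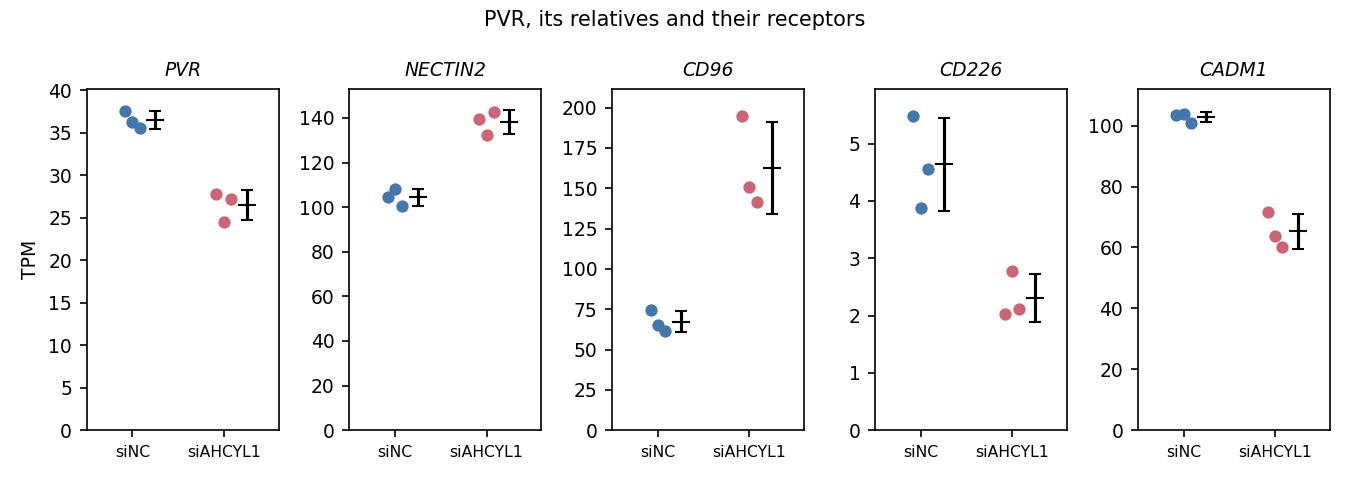
TPM in each library (points) with the group mean and SD (black bars) for PVR, its relative NECTIN2, the receptors CD96 and CD226, and CADM1, each axis starting at 0. PVR, CD226 and CADM1 are lower and NECTIN2 and CD96 higher in all 3 siAHCYL1 libraries.

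CD47, the signal that restrains macrophages through SIRPA, did not pass. It had 13.04, 13.27 and 12.9 TPM in siNC and 15.26, 12.65 and 14.8 TPM in siAHCYL1. The groups overlapped through siAHCYL1 replicate 2 (log2 fold change 0.11, SE 0.102, adjusted p = 0.391), and it passed in no other fit (adjusted p from 0.217 to 0.922). SIRPA, its receptor, was itself present and fell from 19.86, 17.64 and 19.63 to 12.43, 13.06 and 12.43 TPM (-0.55, SE 0.0927, adjusted p = 0.00096). All siAHCYL1 libraries were below the controls.

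Of 12 listed genes of the phagocytosis checkpoint 7 were tested, 4 rose and 1 fell, 71.4% called against 51.6% of all genes (median log2 fold change 0.30). CALR, the chaperone calreticulin, which acts as an "eat me" signal at the cell surface, rose from 1154 ± 2.54 to 1809 ± 31.5 TPM (0.65, adjusted p = 1.14e-05). B2M, the light chain of MHC class I, rose (1062 ± 28.8 to 1388 ± 107 TPM, 0.38, adjusted p = 0.00123). QPCT, a glutaminyl cyclase, rose (145.8 ± 13.1 to 179.2 ± 10.9 TPM, 0.30, adjusted p = 0.0122). Its paralog QPCTL, the enzyme that modifies CD47 for SIRPA binding, did not pass (log2 fold change -0.02, adjusted p = 0.914).

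LGALS9 and its receptor HAVCR2 were both below 1 TPM in every library. LGALS9 had 0.31, 0.66 and 0.39 TPM in siNC and 0.18, 0.29 and 0.52 TPM in siAHCYL1. The groups overlapped. LGALS9 has the near-identical copies LGALS9B and LGALS9C, so the value is uncertain. HAVCR2 had 0.35, 0.24 and 0 TPM in siNC and 0.06, 0 and 0.07 TPM in siAHCYL1. It overlapped through the control library at 0, and neither gene was tested.

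Other galectins were far more abundant. Of 17 genes listed with the galectins, TIM receptors and LAG3, 4 were tested, 2 rose and 1 fell, 75% called against 51.6% of all genes (median log2 fold change 0.28). LGALS1, galectin-1, which can drive T cells into apoptosis, had 7031.84, 6765.73 and 7306.08 TPM in siNC and 11048.54, 12340.32 and 13333.65 TPM in siAHCYL1. It rose, with every siAHCYL1 library above the controls (0.80, adjusted p = 3.99e-05). LGALS3, galectin-3, had 368.39, 418.94 and 420.66 TPM in siNC and 412.02, 556.93 and 576.24 TPM in siAHCYL1. It was called higher (0.34, adjusted p = 0.0382), though the groups overlapped. That call was lost under 4 other settings (0.0593 to 0.145). It was also lost without siNC replicate 1 (0.104) or 2 (0.067) or siAHCYL1 replicate 2 (0.118) or 3 (0.125). CD200, the ligand of an inhibitory myeloid receptor, fell from 149.8 ± 19.1 to 115.4 ± 14.1 TPM (-0.37, adjusted p = 0.0195). Its groups overlapped, and the call was lost without siNC replicate 1 (0.0591) or 2 (0.0724) or siAHCYL1 replicate 2 (0.0601) or 3 (0.0665).

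Among costimulatory genes of the TNF family, the receptor 4-1BB and its ligand were lower. Of 17 listed genes 7 were tested, 1 rose and 4 fell, 71.4% called against 51.6% of all genes (median log2 fold change -0.88). TNFRSF9, which encodes 4-1BB, had 38.29, 41.38 and 38.4 TPM in siNC and 13.93, 12.91 and 12.79 TPM in siAHCYL1. It fell 2.98-fold in mean TPM (log2 fold change -1.51, SE 0.0837, adjusted p = 1.67e-06). Its ligand TNFSF9 fell from 6.86, 5.48 and 6.61 to 1.33, 2.91 and 2.1 TPM (-1.26, adjusted p = 0.000653). The death ligand TNFSF10, or TRAIL, fell (9.51 ± 1.19 to 4.72 ± 0.709 TPM, -0.88, adjusted p = 0.000793). The death receptor FAS had 1.46, 2.25 and 1.06 TPM in siNC and 0.64, 0.22 and 0.16 TPM in siAHCYL1. FAS, 1 of the 4 that fell, passed the filter only through its control libraries. With no filter it was called lower too (-0.94, adjusted p = 0.0105), and with any siNC library left out it missed the filter. TNFRSF10B, a TRAIL receptor, rose slightly (119.6 ± 1.25 to 138.4 ± 2.06 TPM, 0.21, adjusted p = 0.012). That call was lost with median-of-ratios scaling (0.0608) and quantile normalization (0.099), and without siNC replicate 2 (0.055) or siAHCYL1 replicate 2 (0.0637).

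Genes that handle CTLA4 protein in the cell and NFAT factors, which bind GGAAA, were held in 1 list and changed in both directions. Of its 14 genes 12 were tested, 4 rose and 5 fell, 75% called against 51.6% of all genes (median log2 fold change -0.05). LRBA, which shields CTLA4 protein from lysosomal breakdown, rose from 13.41, 13.8 and 13.61 to 26.29, 21.25 and 19.39 TPM (0.66, SE 0.116, adjusted p = 0.00125). It shares 1491 of 16657 exon bases with MAB21L2 on the other strand. AP2M1, the clathrin adaptor subunit that binds the CTLA4 tail, rose from 406.1 ± 13.5 to 539.1 ± 16.5 TPM (0.41, adjusted p = 0.000297). AP2A1 (0.32, adjusted p = 0.0033) and AP1M1, an adaptor subunit of the Golgi (0.37, adjusted p = 0.00234), rose. Only 3 fell without siNC replicate 2, and 2 without siNC replicate 3 or siAHCYL1 replicate 2. The 5 that fell were named after their values were seen. Among them were the calcium-regulated factors NFATC1 (-0.48, adjusted p = 0.00831), NFATC2 (-0.56, adjusted p = 0.0177) and NFATC4 (-0.47, adjusted p = 0.024). The others were the CTLA4 handling gene DEF6 (-0.43, adjusted p = 0.0318) and the small GTPase RAB8A (-0.26, adjusted p = 0.00911). NFATC2 was low, at 2.207 ± 0.327 TPM in siNC and 1.163 ± 0.122 TPM in siAHCYL1. NFATC3 (-0.26, adjusted p = 0.135) and NFAT5 (0.29, adjusted p = 0.0647) did not pass.

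**Figure D5:**
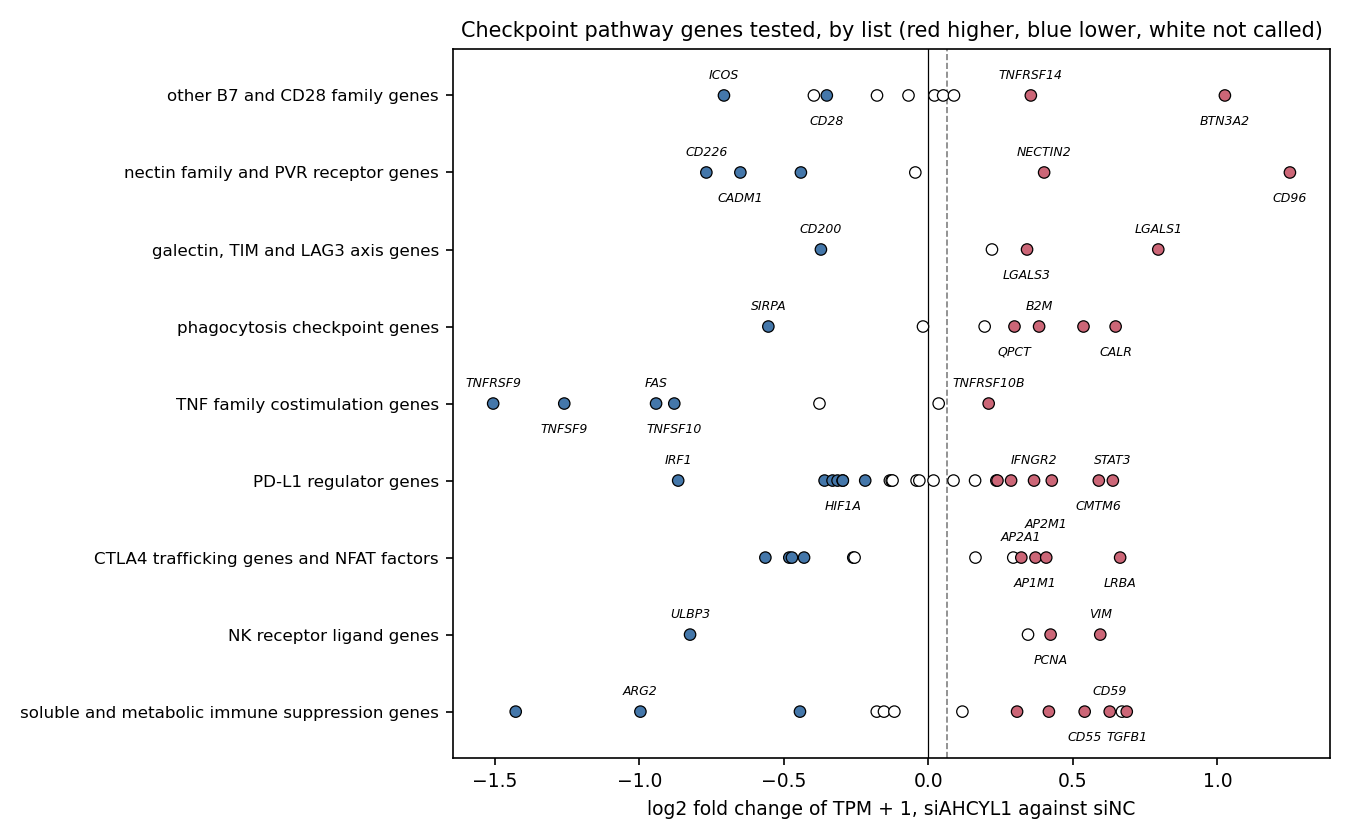
Log2 fold change of TPM + 1, siAHCYL1 against siNC, for each gene tested in the 9 pathway lists (points, red where called higher, blue where called lower, white where not called), with 0 (solid line) and the median of all genes at 0.06 (dashed line). The furthest points are TNFRSF9 at -1.51 and CD96 at 1.25, and every list holds calls in both directions.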

How the data were processed

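RNA of HMCB cells was measured by sequencing in 6 libraries, 3 per group. The authors deposited 1 table of TPM, a length-corrected abundance that sums to the same total in every library, rounded to 2 decimals. The tools were STAR and RSEM with GRCh38, per the submitters' processing notes. Neither their versions nor the annotation is given in the sources used here. Column totals ran from 999999.43 to 1000000.21, so sequencing depth cannot be read from them, and counting intervals and floors were left out. A 0 in such a table can be a failed estimate.

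Columns with the prefix nc match the siNC titles, and those with the prefix si were taken as siAHCYL1, the only other group. Differences in log2(TPM + 1) were fitted in R 4.3.3 by limma 3.58.1 (moderated test with intensity trend, two-sided, Benjamini-Hochberg adjustment over the 13266 genes that reached 1 TPM in 3 or more libraries, group as the only term). A gene was called at an adjusted p under 0.05. The test was checked on simulated data with independent noise and few changed genes. That setting differs from these data, where 51.6% of genes were called, so nothing is concluded from it. Replicates are labelled biological, but separate cultures are not described, so p-values measure only how far these samples spread, and that spread may be technical.

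The members, the 9 pathway lists, the 5 marker lists and the naming rule were chosen with earlier results of these data known. The naming rule took all members and AHCYL1. From each pathway list it took up to 4 called genes with the smallest adjusted p and the gene of highest level. It also took the 5 genes most correlated with CTLA4, of which 1 is not reported here. Of 190 list entries 181 were in the table, 1 of them by an older symbol. Gene positions came from GENCODE 29 (GRCh38), and promoters from a RefSeq table (GRCh38.p14). Other named genes also share exon bases with a gene on the opposite strand. Among them are TNFRSF14 (831 of 6219), IFNGR2 (380 of 2960), VIM (641 of 5158) and CALR (270 of 2714). Alternatives were quantile normalization, median-of-ratios scaling, the replicate number as a block, a stricter filter (5 TPM) or none, a smaller pseudocount (0.1), robust moderation with no trend, and leaving out 1 library at a time.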

Additional observations from a re-analysis of the deposited data

How the results depend on the processing

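The fit without replicate 1 of both groups was chosen after seeing the data. Of 36 named pathway genes over 497 refits, 462 kept their call, 35 lost it (7 genes, each named above) and none changed direction. Fits in which a named gene missed the filter are not in this count. FAS missed it at 5 TPM, without any 1 siNC library and without replicate 1 of both groups. ICOS and CD226 missed it at 5 TPM. The count of all changed genes was 6844 and ranged from 5566 to 7919, and AHCYL1 stayed between -3.54 and -3.38. The members tested other than CTLA4 gave 1 call in the main analysis and 2 with the replicate block, where CD276 passed (log2 fold change 0.14, adjusted p = 0.0285). With libraries left out the count ranged from 1 to 2, and CD276 from 0.109 to 0.184. CD276 was 0.0795 with median-of-ratios scaling and 0.0862 with quantile normalization, and passed in neither. Without replicate 1 of both groups CD276 was 0.169 and the count 2. CTLA4 was -3.86 with a pseudocount of 0.1. The replicate numbers were not taken as pairs. Deviations from the group means correlated at 0.233, 0.001 and 0.154 between same-numbered libraries. Between siNC replicate 3 and siAHCYL1 replicate 2, which differ in number, the correlation was 0.153. With the replicate block 7919 genes changed. For these changes the cause was not tested. CD86, at 0 throughout, gave no value in any fit, and CD80, CD274, PDCD1LG2, LGALS9 and HAVCR2 only with no filter. The limits that depth sets cannot be given, since TPM does not keep it.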

Other observations

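Ligands of NK cell receptors moved both ways. Of 12 listed genes, MICA, MICB and BAG6 matched no row of the table and were not analysed here. Of the 9 others 4 were tested, 2 rose and 1 fell, 75% called against 51.6% of all genes (median log2 fold change 0.38). ULBP3, a ligand of the activating receptor NKG2D, fell from 32.08, 26.36 and 22.67 to 17.43, 13.33 and 13.6 TPM (-0.82, SE 0.144, adjusted p = 0.0012). ULBP1 was listed at 0 throughout. VIM, the filament protein vimentin, rose from 693.7 ± 39 to 1048 ± 65.6 TPM (0.59, adjusted p = 9.48e-05), and PCNA, a replication clamp that can bind an NK receptor, rose (0.42, adjusted p = 0.00169). Both have main roles outside immunity.

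Of 18 soluble and metabolic suppressors of immunity 13 were tested, 5 rose and 3 fell, 61.5% called against 51.6% of all genes (median log2 fold change 0.12). The complement regulators CD55 (505.8 ± 28.7 to 736.3 ± 45.8 TPM, 0.54, adjusted p = 0.000171) and CD59 (0.63, adjusted p = 7.67e-05), which protect cells from lysis, rose. TGFB1, an inhibitory cytokine, rose from 119.54, 112.9 and 108.86 to 180.47, 189.95 and 180.39 TPM (0.69, adjusted p = 2.6e-05). ARG2, a mitochondrial arginase, fell from 20.73, 20.49 and 19.92 to 11.3, 9.45 and 8.57 TPM (-0.996, adjusted p = 9.04e-05). ARG2 shares 904 of its 2418 exon bases with VTI1B on the other strand.

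Among the genes closest to CTLA4 in their profile over the 6 libraries were FGFR2 (Pearson r 0.9999), PSMB3 (0.9993), GPR137C (0.9990) and LINC01314 (0.9990). All libraries share the same 2 groups, and 218 of 13265 genes had an r over 0.99, so this likeness is a description only. FGFR2, a growth factor receptor, went from 26.18 ± 1.2 to 9.617 ± 1.07 TPM.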
